A study of Mus musculus with 8 samples.

Results

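Acyl-CoA thioesterases, encoded by the Acot genes, split acyl-CoA esters into a free acid and coenzyme A and so work against the acyl-CoA synthetases. In hepatocytes they set how much acyl-CoA is left for oxidation, for complex lipid synthesis and as a ligand source for nuclear receptors. The type I enzymes (Acot1 to Acot6 in the mouse) lie in 1 gene cluster, differ from each other in compartment and in preferred substrate, and include textbook targets of PPAR alpha, the fatty acid-sensing nuclear receptor of the liver. The other Acot enzymes are type II, built on hotdog-fold domains, and are spread over the genome.

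The 10 genes described here (Acot1, Acot2, Acot3, Acot4, Acot7, Acot8, Acot9, Acot11, Acot12 and Acot13) were taken by symbol from the 25239 gene symbols counted in each liver, and all 10 were found. Bulk liver RNA-Seq was compared between 4 control and 4 Smo-KO livers to ask what hepatocyte loss of Smo, the signal-transducing protein of the Hedgehog pathway, does during diet-induced steatohepatitis. All mice were adult males on C57Bl6/J that carried Smo tm2Amc/J on both alleles (Smo fl/fl), and all ate a choline-deficient, amino acid-defined high-fat diet (CDA-HFD) for 6 weeks. All received an adeno-associated virus by tail vein 1 week before sacrifice, which carried AAV8-TBG-Luciferase in control mice and AAV8-TBG-Cre in Smo-KO mice. The TBG promoter acts in hepatocytes, so the vector does not target Smo in other liver cells, and the control livers, labelled WT, are floxed and virus-treated livers. Chow-fed livers were not analysed here, so the values describe Smo-KO within CDA-HFD feeding only. Reads assigned to genes numbered 9177277, 9394970, 9891102 and 9999732 in control livers 1 to 4 and 9543675, 9367795, 8203299 and 9445427 in Smo-KO livers 1 to 4. Levels are given as CPM, the counts of a gene relative to library size after scaling by the trimmed mean of M-values (TMM), and 3 reads were worth 0.297 to 0.366 CPM.

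Smo itself was lower in every Smo-KO liver. Its level was 8.17, 8.49, 8.74 and 8.21 CPM in control livers and 5.67, 3.93, 4.27 and 4.37 CPM in Smo-KO livers, with means of 8.40 ± 0.27 and 4.56 ± 0.765 CPM (SD, n = 4 each, exact permutation p = 0.0286, two-sided, the smallest p that 4 against 4 livers allow). The log2 fold change was -0.88 (SE 0.16, edgeR quasi-likelihood adjusted p = 0.0957). The adjusted p was 0.00613 by DESeq2, 0.0385 by edgeR without the filter on low counts and 0.0266 by edgeR without Smo-KO 1, and it ran up to 0.219 over 13 alternative fits. Of the Smo-KO livers, Smo-KO 1 kept the most Smo. In whole liver, a lower level can come from fewer cells of a type or from less RNA per cell, and these cannot be told apart. Hepatocyte markers were abundant in all livers, as 7 of 8 listed genes were found and all 7 were tested. Their summed level was 35807 ± 1689 CPM in the control group against 34607 ± 648 CPM after Smo deletion (exact permutation p = 0.2, n = 4 each), led by Alb.

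The Acot genes lay on several chromosomes (GRCm38, GENCODE M21 annotation). Acot2 (chr12:83987861-83993873), Acot1 (chr12:84009490-84018371), Acot4 (chr12:84038379-84048601) and Acot3 (chr12:84052144-84060402) lay on the plus strand within 123.5 kb that also held Acot5 and Acot6. Acot8 was at chr2:164792765-164804882 (minus strand), Acot11 at chr4:106744555-106804998 (minus) and Acot7 at chr4:152178134-152271855 (plus). Acot13 was at chr13:24817948-24831540 (minus), Acot12 at chr13:91741512-91786148 (plus) and Acot9 at chrX:155262443-155297654 (plus).

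Start-site sequence was examined because type I genes are known PPAR alpha targets. The receptor, paired with RXR, binds 2 copies of the hexamer AGGTCA spaced by 1 base. RefSeq windows (GRCm38.p6) from 250 bases before to 50 bases after the start were found for 9 of the 10 genes, 11 windows in all. Neither strand of these windows held the letters AGGTCANAGGTCA, which occurred in 0.0396% of 32851 windows genome-wide, or the Gli motif GACCACCCA, which occurred in 0.253%. The single hexamer AGGTCA occurred in 16.3% of all windows and in 4 of the 11, namely both overlapping Acot3 windows and those of Acot4 and Acot12. These 3 genes are shown over 170 bases before to 30 bases after the start, with the hexamer, read here on the other strand as TGACCT, in capitals. It began 18 bases after the start in Acot3, and at -13 in Acot4 and -110 in Acot12.
Acot3, chr12:84051974-84052173, plus strand: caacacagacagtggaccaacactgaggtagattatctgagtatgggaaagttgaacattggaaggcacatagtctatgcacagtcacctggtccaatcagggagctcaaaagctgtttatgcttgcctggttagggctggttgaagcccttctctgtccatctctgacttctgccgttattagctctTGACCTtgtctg
Acot4, chr12:84038209-84038408, plus strand: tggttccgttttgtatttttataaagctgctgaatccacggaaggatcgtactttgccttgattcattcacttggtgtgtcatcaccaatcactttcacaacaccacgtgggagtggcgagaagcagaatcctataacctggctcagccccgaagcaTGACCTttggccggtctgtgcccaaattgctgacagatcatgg
Acot12, chr13:91741351-91741550, plus strand: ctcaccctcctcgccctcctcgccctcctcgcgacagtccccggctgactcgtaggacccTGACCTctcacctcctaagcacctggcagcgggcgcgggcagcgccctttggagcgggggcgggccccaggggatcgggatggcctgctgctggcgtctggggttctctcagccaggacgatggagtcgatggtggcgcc
A run of matching letters is a description of these windows and not a mapped binding site.

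The gene cluster on chromosome 12 held the 3 largest fold differences of the 10 genes with all livers, and Acot12 exceeded Acot2 without Smo-KO 3. Acot3, Acot1 and Acot2 were 2.23, 0.99 and 0.77 higher in Smo-KO on the log2 scale, but no gene of the cluster passed the adjusted threshold in edgeR with the filter on low counts, and Smo-KO 3 contributed much of each difference. Acot3, a peroxisomal enzyme for long-chain acyl-CoA, was at 4.76, 3.04, 2.48 and 5.74 CPM in control livers and 7.53, 8.83, 47.9 and 11.9 CPM in Smo-KO livers. Every Smo-KO liver was above every control liver, and Smo-KO 3 was far above the other 3. The log2 fold change was 2.23 (SE 0.56, edgeR adjusted p = 0.151), and 1.23 (SE 0.27, adjusted p = 0.165) without Smo-KO 3. In edgeR without the filter on low counts the adjusted p was 0.0442, and the range was 0.0442 to 0.306 over 13 alternative fits. Acot1, the cytosolic long-chain enzyme, was at 11.3, 13.2, 17.7 and 13.2 CPM in control livers and 14.1, 23.6, 51.6 and 21.96 CPM in Smo-KO livers. The groups overlapped, since Smo-KO 1 lay below control 3. Its log2 fold change was 0.99 (SE 0.31, edgeR adjusted p = 0.217), or 0.52 (SE 0.19) without Smo-KO 3.

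Acot2 is the mitochondrial matrix enzyme of the cluster. Its level was 34.7, 35.1, 37.6 and 34.0 CPM in control livers and 42.6, 46.4, 112 and 40.6 CPM in Smo-KO livers. The groups did not overlap, the control livers lay close together, and Smo-KO 3 stood far above the rest. The log2 fold change was 0.77 (SE 0.27, edgeR adjusted p = 0.249) with all livers and 0.29 (SE 0.10) without Smo-KO 3. Acot4, a peroxisomal enzyme that favors succinyl-CoA and other dicarboxylic acyl-CoA, was at 32.1, 31.8, 31.0 and 30.8 CPM in control livers and 30.9, 30.1, 56.1 and 44.1 CPM in Smo-KO livers. Smo-KO 1 and 2 were at control levels, and Smo-KO 3 and 4 were above every control. Its log2 fold change was 0.36 (SE 0.17, edgeR adjusted p = 0.375), or 0.16 (SE 0.13) without Smo-KO 3.

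The remaining cluster genes were near the limit of detection. Acot6, below the filter for the model, was at 1.02, 1.36, 1.49 and 1.58 CPM in control livers and 0.515, 0.763, 0.732 and 0.64 CPM in Smo-KO livers (exact permutation p = 0.0286, n = 4 each). It was lower in every Smo-KO liver, the opposite order to Acot3 and Acot2. Acot5 had reads in control 1 only (0.113 CPM). Summed over all 6 genes, the cluster held 84.0, 84.5, 90.2 and 85.3 CPM in control livers and 95.7, 110, 268 and 119 CPM in Smo-KO livers. Fitted as 1 row, it gave a log2 fold change of 0.78 (SE 0.26), and 0.33 (SE 0.10) without Smo-KO 3. Genes on either side of the cluster were also read. Of 6 genes tested within 200 kb, 5 were higher and 1 lower, with a median log2 fold change of 0.07, a range from -0.39 (Elmsan1) to 0.37 (Papln), and overlapping groups for all 6. Of these 6, only Elmsan1 had an unadjusted edgeR p under 0.05 (adjusted p = 0.294). Over all genes tested, 13.8% had such a p and 7.37% had separate groups.

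**Figure D1:**
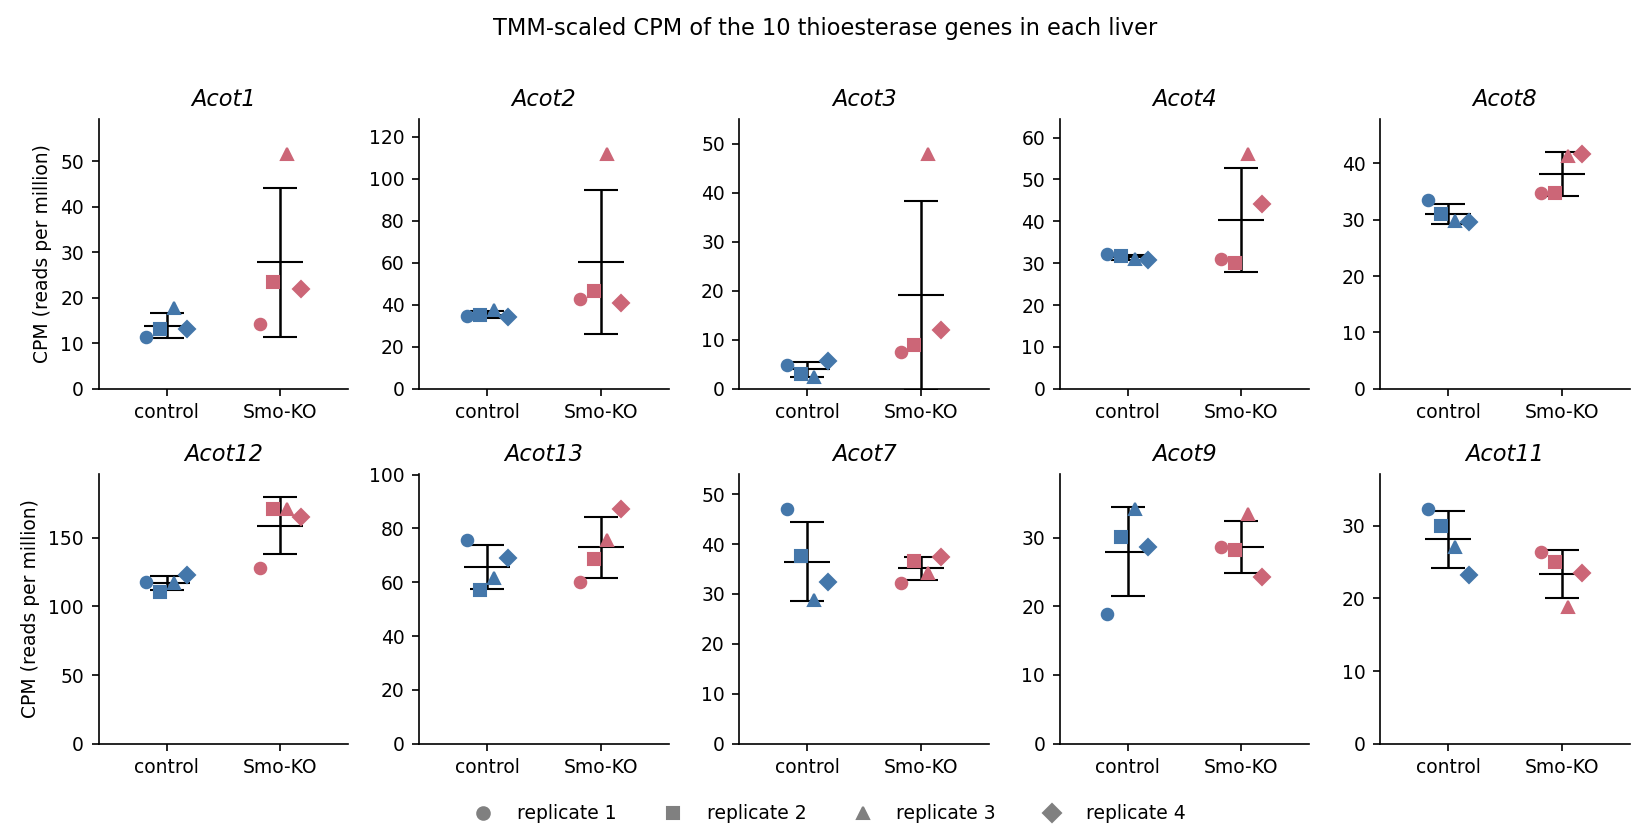
TMM-scaled CPM (y axes, linear, each panel with its own scale) of the 10 Acot genes in 4 control (blue) and 4 Smo-KO (red) livers, with mean and SD bars (the lower SD bar of Acot3 in Smo-KO is cut at 0). Symbols mark the replicate number, and Smo-KO 3 (triangle) is the highest point in the panels of Acot1, Acot2, Acot3 and Acot4, at 51.6, 112, 47.9 and 56.1 CPM.

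Acot12 and Acot8 were higher with less scatter. Acot12, a cytosolic acetyl-CoA hydrolase found mainly in liver, was at 117, 110, 117 and 123 CPM in control livers and 128, 171, 171 and 165 CPM in Smo-KO livers. All Smo-KO livers were above all control livers, and Smo-KO 1 was the lowest of them. The log2 fold change was 0.44 (SE 0.10, edgeR adjusted p = 0.133), the smallest adjusted p of the 10 genes. DESeq2's Wald test gave an adjusted p of 0.0131, and edgeR without Smo-KO 1 gave 0.0266, with a range of 0.0131 to 0.267 over 13 alternative fits. Without Smo-KO 3 the log2 fold change was 0.40 (SE 0.11). Acot8, a peroxisomal enzyme of broad acyl-CoA specificity, was at 33.6, 31.0, 29.7 and 29.7 CPM in control livers and 34.7, 34.7, 41.3 and 41.7 CPM in Smo-KO livers. The groups did not overlap, although control 1 came close to Smo-KO 1 and 2. Its log2 fold change was 0.30 (SE 0.10, edgeR adjusted p = 0.239).

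The remaining 4 genes had overlapping groups and small fold differences. Acot13, or Them2, a long-chain enzyme of mitochondria and cytosol, was at 75.6, 57.1, 61.5 and 69.0 CPM in control livers and 60.1, 68.7, 75.6 and 87.3 CPM in Smo-KO livers (log2 fold change 0.15, SE 0.12, edgeR adjusted p = 0.635). With a liver left out its fold change ran from 0.05 (without Smo-KO 4) to 0.24 (without Smo-KO 1). Acot11, or Them1, known for opposing heat production in brown fat, was at 32.3, 29.99, 27.0 and 23.2 CPM in control livers and 26.4, 24.98, 18.8 and 23.5 CPM in Smo-KO livers. It had the most negative fold difference of the 10 genes, at -0.26 (SE 0.13, edgeR adjusted p = 0.396), and Smo-KO 3 was its lowest liver, without which the value was -0.17. Acot7, a cytosolic enzyme best known from brain, was at 47.1, 37.6, 28.8 and 32.4 CPM in control livers and 32.3, 36.6, 34.1 and 37.4 CPM in Smo-KO livers (-0.05, SE 0.14, edgeR adjusted p = 0.899). Acot9, a mitochondrial enzyme, was at 18.9, 30.1, 34.2 and 28.6 CPM in control livers and 28.7, 28.1, 33.4 and 24.3 CPM in Smo-KO livers (0.03, SE 0.16, edgeR adjusted p = 0.958). For Acot7 and Acot9 the spread within the control group, with control 1 at one end, exceeded the difference between group means, and their direction turned when control 1 was left out (to 0.09 and -0.11). That of Acot9 also turned without Smo-KO 3 (-0.05).

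Across the 10 genes, 8 were higher and 2 were lower in Smo-KO, with a median log2 fold change of 0.33 against -0.00084 over the 12977 genes tested. All 10 genes passed the filter on low counts. With that filter and all livers, no gene reached an adjusted p under 0.05 in edgeR, where the background was 0% of genes tested. DESeq2 called 1 of the 10 (Acot12) against 1.26% of genes. At an unadjusted edgeR p under 0.05 there were 5 of the 10 genes (Acot12, Acot3, Acot1, Acot8 and Acot2), against 13.8% of genes tested in either direction. All 5 were higher, against a background of 6.7% in that direction. Groups were separate in 4 of the 10 (Acot12, Acot3, Acot8 and Acot2), all higher in Smo-KO, against 7.37% of genes in either direction and 3.03% in that direction. Without Smo-KO 3, 7 of the 10 were higher, with a median of 0.21, and 5 still had an unadjusted p under 0.05, against 9.50% of genes tested in either direction in that fit.

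**Figure D2:**
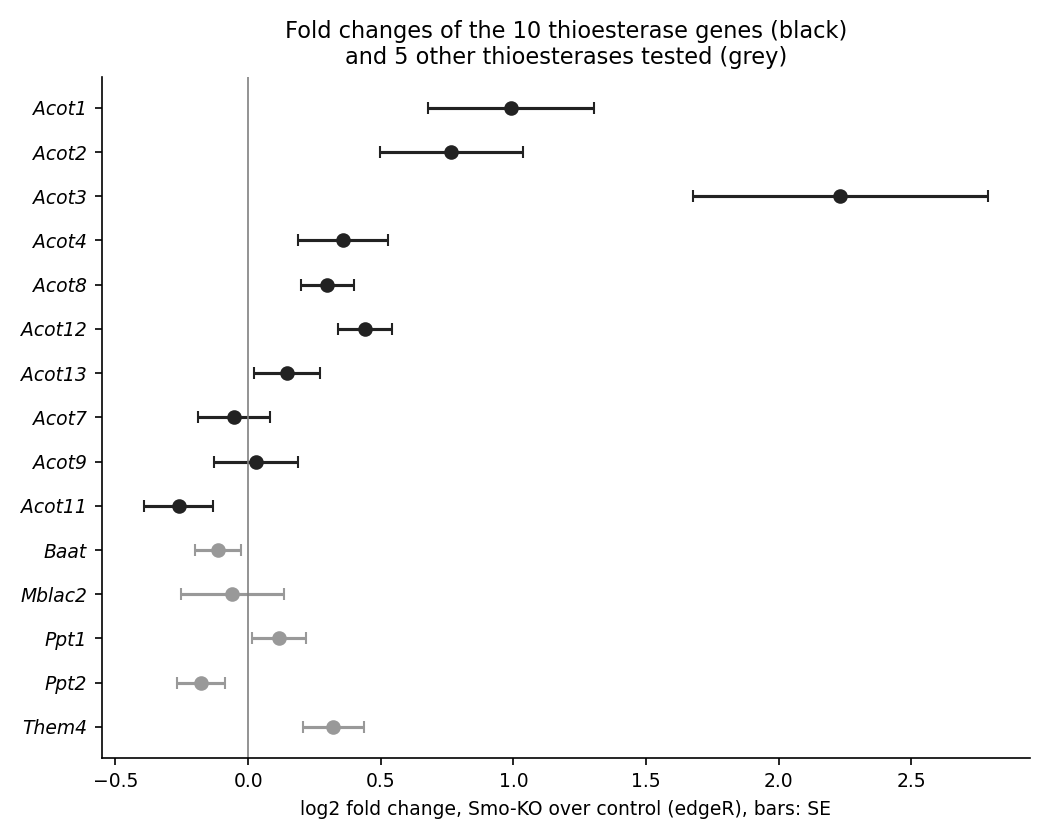
Log2 fold change of Smo-KO over control from edgeR (x axis, points) with SE (bars) for the 10 Acot genes (black) and 5 other thioesterases (grey). Acot3 lies farthest to the right at 2.23, and Acot11 farthest to the left at -0.26.

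The genes also differed in abundance. Per kilobase of the longest annotated transcript, Acot13 had the highest level, at 91.3 ± 11.3 CPM per kb in control and 101 ± 15.9 CPM per kb in Smo-KO (SD, 4 livers each), followed by Acot12 at 38.2 ± 1.72 and 51.9 ± 6.72 CPM per kb. Acot13 was above every other gene of the 10 in both groups, while Acot12 stood apart in control livers and overlapped Acot2, which reached 50.9 CPM per kb, in Smo-KO livers. Acot8 (24.3 ± 1.43 and 29.9 ± 3.08), Acot7 (24.2 ± 5.27 and 23.3 ± 1.57), Acot2 (16.1 ± 0.701 and 27.5 ± 15.7) and Acot9 (15.95 ± 3.68 and 16.3 ± 2.13 CPM per kb) followed. In that run, ordered by the mean over both groups, Acot8 and Acot7 overlapped in control livers. Acot7 and Acot2 overlapped in Smo-KO livers, and Acot2 and Acot9 overlapped in both groups. In Smo-KO livers Acot2 ran from 18.5 to 50.9 CPM per kb, across the whole range of Acot8 (27.2 to 32.7), with a mean above that of Acot7. In control livers Acot7 (from 19.1) and Acot9 (to 19.5 CPM per kb) also overlapped. Acot1 (5.30 ± 1.03 and 10.6 ± 6.27), Acot4 (5.06 ± 0.101 and 6.50 ± 1.99) and Acot11 (4.95 ± 0.689 and 4.11 ± 0.581 CPM per kb) came next, each overlapping the next in control livers. In Smo-KO livers Acot1 overlapped Acot2, Acot9 and Acot4. Acot3 was the lowest in control livers, at 1.17 ± 0.439 CPM per kb and apart from Acot11, and reached 5.55 ± 5.64 in Smo-KO livers. Acot13 and Acot12 made up 40.2% and 16.9% of the summed CPM per kb of the 10 genes in control livers, and 36.7% and 18.9% in Smo-KO livers. Acot3 made up 0.511% and 1.84%.

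**Figure D3:**
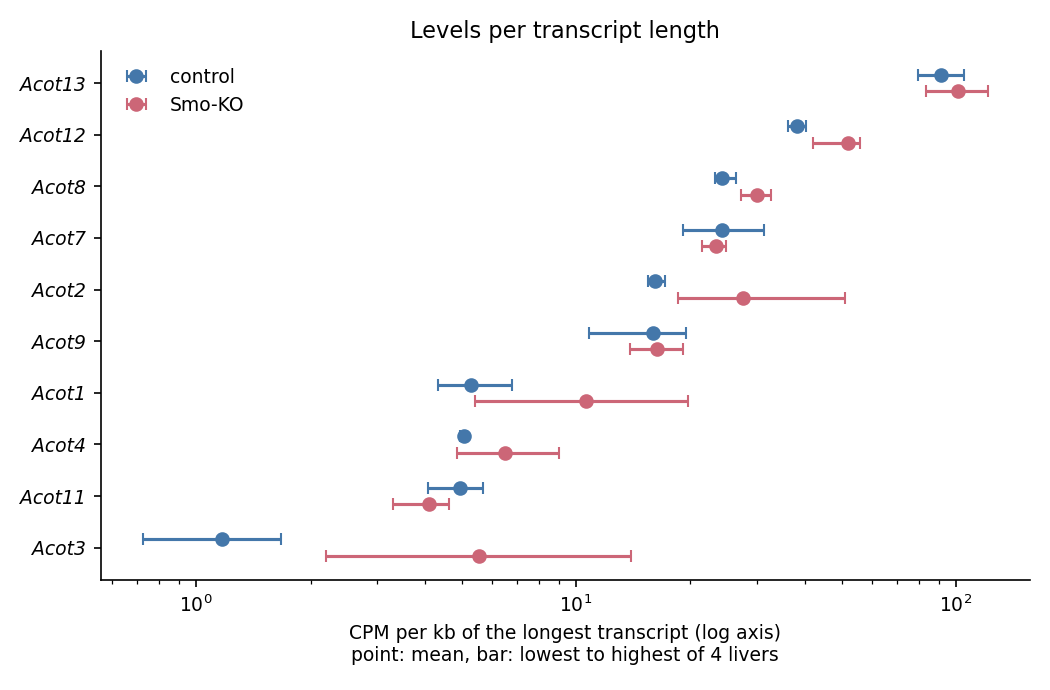
TMM-scaled CPM per kb of the longest annotated transcript (x axis, log) for each Acot gene, as mean (point) and lowest to highest of 4 livers (bar), in control (blue) and Smo-KO (red). Acot13 is highest in both groups, and Acot3 is lowest in control livers with the widest separation between group means.

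Summed over the 10 genes, the livers held 379 to 408 CPM in control and 406 to 642 CPM in Smo-KO. The 4 chromosome 12 genes among them took 20.3 to 22.9% of that sum in control livers. In Smo-KO livers they took 23.5, 23.0, 41.7 and 23.8%, so the largest change in family makeup was in Smo-KO 3. This liver had the highest level of all 8 in 4 of the 10 genes (Acot1 to Acot4), where it was highest in 15.97% of all genes tested. Smo-KO 3 also had the fewest reads, 8203299, and its Smo level of 4.27 CPM lay within the Smo-KO range. The part of depth in these values was not tested.

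Other PPAR alpha targets were also highest in Smo-KO 3. Outside the Acot family, 38 of 40 listed targets were tested (Peci is an older symbol of Eci2 and was not found as its own row, and Ucp3 was below the filter), and 35 were higher and 3 lower in Smo-KO. Their median log2 fold change was 0.30, with 19 higher and 1 lower at an unadjusted edgeR p under 0.05 (background 6.7% higher and 13.8% in either direction), none at an adjusted p under 0.05, and 6 called by DESeq2 (background 1.26%). Smo-KO 3 was the highest of the 8 livers for 32 of the 38 (84.2%), and relative to the control mean the median target stood at 0.03, 0.25, 0.59 and 0.17 on the log2 scale in Smo-KO livers 1 to 4. Without Smo-KO 3, 33 were higher, the median was 0.19, and 10 were higher at an unadjusted p under 0.05 (26.3%, against 4.43% of genes tested). The smallest p-values among higher genes were those of Acaa1b, a peroxisomal thiolase (log2 fold change 0.55, SE 0.11), Slc22a5, the carnitine transporter (0.59, SE 0.13), and Cyp4a32, a fatty acid omega-hydroxylase (1.35, SE 0.32). Fgf21, a fasting hormone, stood against the list at -1.48 (SE 0.52). Ppara was at 180 ± 29.0 CPM in control and 210 ± 30.7 CPM in Smo-KO livers (log2 fold change 0.23, SE 0.13, edgeR adjusted p = 0.463, n = 4 each), and its level in Smo-KO 3 was 181 CPM, the lowest of the Smo-KO livers.

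**Figure D4:**
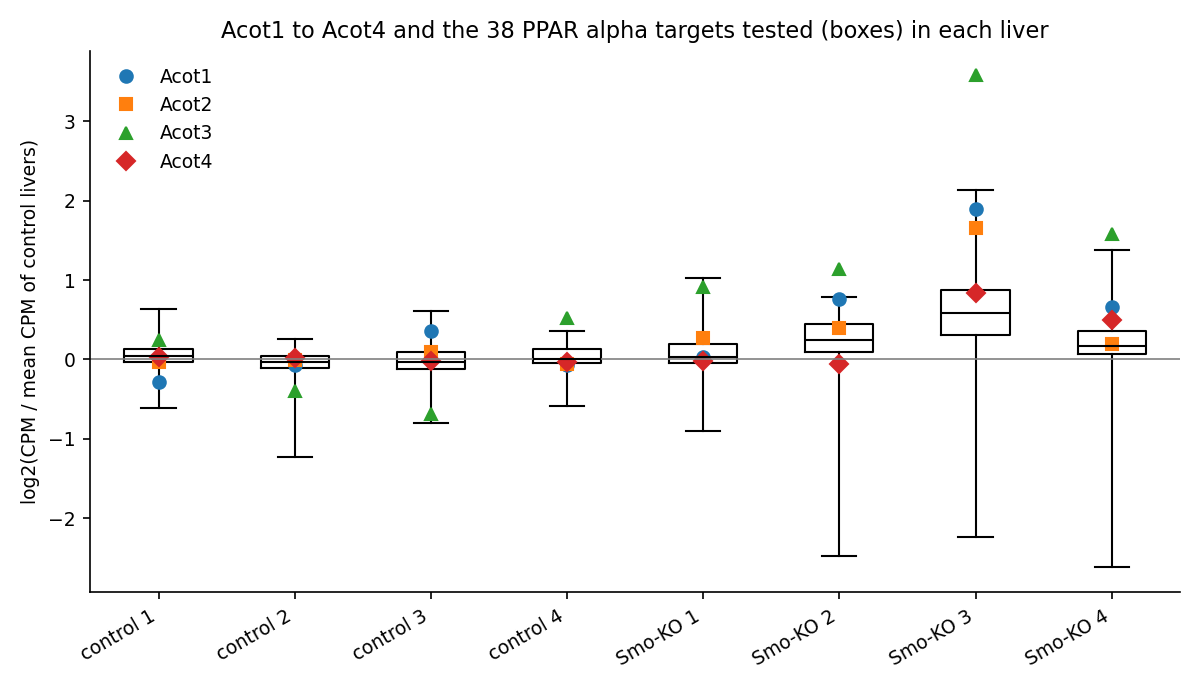
Level in each liver relative to the mean of the control livers (y axis, log2 of the CPM ratio) for Acot1 to Acot4 (colored points) and for 38 PPAR alpha targets (boxes: quartiles and median; whiskers: lowest to highest). The median target is highest in Smo-KO 3, at 0.59, as are all 4 Acot genes.

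Of the thioesterases outside the 10 genes, Acot10, Acot5, Acot6, Them5 and Olah were below the filter, and 5 were tested. Them4, a mitochondrial thioesterase, was at 20.4, 20.2, 20.1 and 25.8 CPM in control livers and 23.5, 29.6, 27.6 and 27.6 CPM in Smo-KO livers (log2 fold change 0.32, SE 0.12, edgeR adjusted p = 0.257). Baat, the most abundant, which joins bile acids to amino acids, was at 278 ± 10.3 CPM in control and 257 ± 21.7 CPM in Smo-KO livers (-0.11, SE 0.09). The lysosomal palmitoyl-protein thioesterases Ppt1 and Ppt2 were at 0.12 (SE 0.10) and -0.18 (SE 0.09), and Mblac2, a palmitoyl-CoA hydrolase, at -0.06 (SE 0.19). With a liver left out, Baat ran from -0.15 to -0.06, Ppt1 from 0.06 to 0.17, Ppt2 from -0.21 to -0.12 and Mblac2 from -0.18 to 0.09. Acot10 had reads in Smo-KO 1 only (0.103 CPM), Olah had none in any liver, and Them5 reached at most 0.596 CPM.

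Genes around the thioesterase step were counted in the same way, beside the background of 13.8% of all genes at an unadjusted edgeR p under 0.05 (6.7% higher). Of 18 acyl-CoA synthetases tested, which make the Acot substrates, 11 were higher and 7 lower (median 0.05), with 3 higher and 2 lower at an unadjusted edgeR p under 0.05. Slc27a1 (0.49, SE 0.12), Acsl1 (0.47, SE 0.16) and Slc27a2, the most abundant (0.29, SE 0.13), were the higher ones. Acsl3 (-0.61, SE 0.15) and Acsl5 (-0.30, SE 0.08) were the lower ones. Acsl1 was also counted among the PPAR alpha targets above, so the lists share this gene. Of 15 genes of coenzyme A synthesis and breakdown, 10 were higher and 5 lower (median 0.09), with 5 and 1 at an unadjusted p under 0.05. The 5 became 3 without control 2, control 3, Smo-KO 1, Smo-KO 3 or Smo-KO 4, and the 1 became 0 without control 3, control 4, Smo-KO 1, Smo-KO 2 or Smo-KO 3. Vnn1, a pantetheinase (0.88, SE 0.22), Pank1, a pantothenate kinase (0.42, SE 0.12), and Ppcdc (0.39, SE 0.14) led the higher genes. Nudt19, a peroxisomal coenzyme A diphosphatase, was lower (-0.20, SE 0.09), and Nudt7, the most abundant and of the same kind, was at 0.21 (SE 0.18). Of 14 binding proteins and carriers, 10 were higher and 4 lower (median 0.06, from 0.02 without Smo-KO 4 to 0.11 without Smo-KO 1), with 4 higher and none lower at an unadjusted p under 0.05. The 4 became 1 without control 4, Smo-KO 3 or Smo-KO 4, and 2 without control 2, control 3 or Smo-KO 2. Without Smo-KO 1 they became 6, and 1 carrier was lower at that p without control 1, control 4 or Smo-KO 1. Abcd2 (0.44, SE 0.12) and Abcd3 (0.29, SE 0.12), peroxisomal acyl-CoA transporters, and Slc25a20, the mitochondrial carnitine carrier (0.29, SE 0.12), led these, and Scp2, the most abundant, was at 0.03 (SE 0.09). Of 15 regulators, 8 were higher and 7 lower (median 0.01), with Hnf4a, the most abundant, at -0.13 (SE 0.09). Smo, the deleted gene, whose direction was set by the design, was lower at an unadjusted p under 0.05. So were Nr1d1 (-0.71, SE 0.31) and Nr0b2 (-0.65, SE 0.29). These 3 became 1 without control 1, control 2, Smo-KO 2, Smo-KO 3 or Smo-KO 4, and 2 without Smo-KO 1. None of the regulators was higher at that p with all livers, but 2 were without control 1 and 1 was without Smo-KO 3. The median of the regulators turned negative without control 1, control 2, control 4, Smo-KO 1, Smo-KO 3 or Smo-KO 4, and that of the synthetases turned negative without Smo-KO 2. With all livers and the filter on low counts, no gene of these lists had an edgeR adjusted p under 0.05. Smo did without that filter and without Smo-KO 1, as given above. DESeq2 called 2 synthetases (Acsl3 and Slc27a1), 1 coenzyme A gene (Vnn1) and 1 regulator (Smo, the deleted gene), against 1.26% of all genes.

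**Figure D5:**
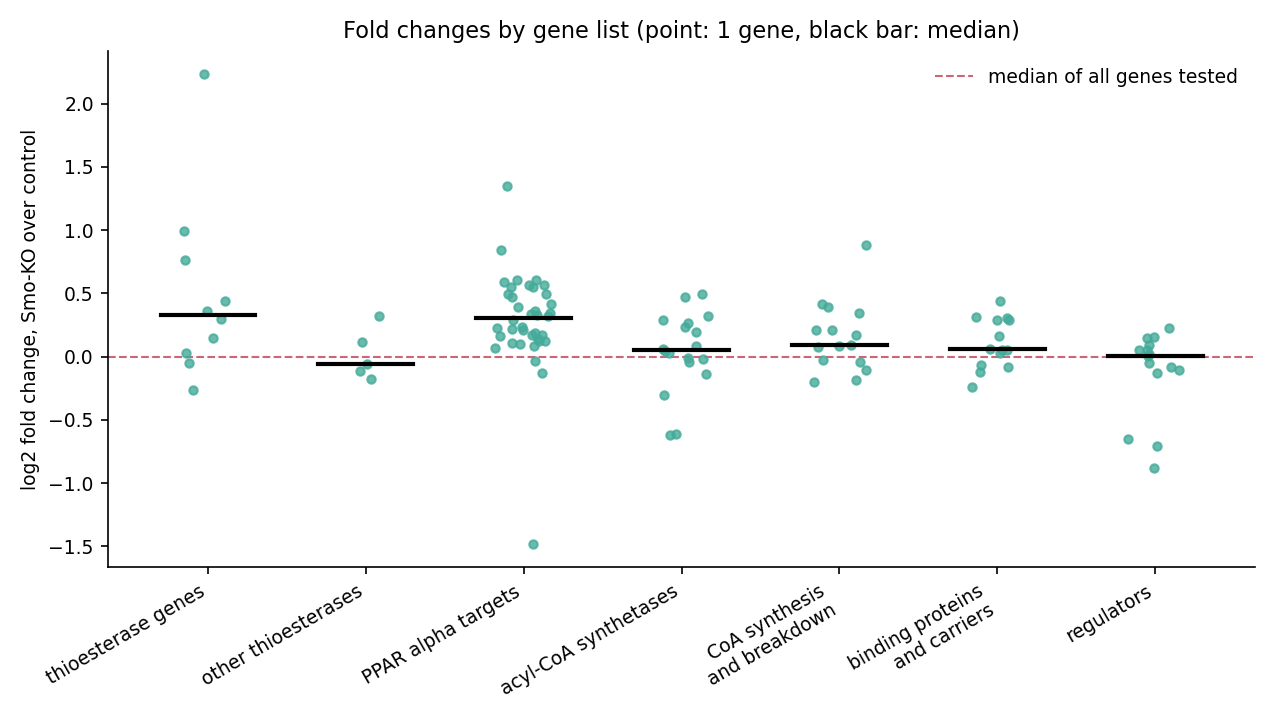
Log2 fold change of Smo-KO over control (y axis) for each tested gene (point) of 7 lists (x axis), with the list median (black bar) and the median of all genes tested (dashed line, -0.00084). Acsl1 is drawn in both the synthetase and the PPAR alpha target lists. The list medians run from -0.06 (other thioesterases) to 0.33 (Acot genes), with 0.30 for the PPAR alpha targets, and the lowest of them turned positive without control 4 (0.05) or Smo-KO 1 (0.01).

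Markers of other liver cells were read beside these values. The T and NK cell list was the only one of 11 marker lists with separate groups: its summed level was 43.3, 40.4, 35.5 and 48.6 CPM in control livers and 19.4, 16.8, 29.0 and 28.5 CPM in Smo-KO livers (exact permutation p = 0.0286, n = 4 each). All 6 of its genes were found and 4 were tested. All 4 were lower at an unadjusted edgeR p under 0.05, with Nkg7 the most abundant. The DESeq2 adjusted p was 0.0399 for Cd3e, 0.0143 for Cd8a, 0.0121 for Nkg7 and 0.143 for Cd3g. The summed levels of macrophage, stellate, endothelial, cholangiocyte, B cell, neutrophil and neuron lists overlapped between groups (exact permutation p from 0.143 to 0.714, n = 4 each). Outside the T and NK cell list, 5 of 40 markers tested (12.5%) were at an unadjusted edgeR p under 0.05, a share near the background of 13.8%. Trem2, a receptor of lipid-associated macrophages, was at 29.8, 36.2, 32.8 and 35.7 CPM in control livers and 43.9, 54.6, 66.5 and 61.1 CPM in Smo-KO livers (log2 fold change 0.75, SE 0.13, edgeR adjusted p = 0.0957, DESeq2 adjusted p = 0.000156), and like Acot1 to Acot4 it was highest in Smo-KO 3. The hepatocyte marker Cps1, a urea cycle enzyme, was lower in every Smo-KO liver (-0.33, SE 0.10, edgeR adjusted p = 0.218) and lowest in Smo-KO 3, at 603 CPM. All 6 endothelial markers had negative fold changes, 1 of them, Pecam1 (-0.50, SE 0.20), at an unadjusted edgeR p under 0.05. The stellate cell marker Col1a1 (-0.36, SE 0.13) and the neuron-list marker Map2 (0.66, SE 0.25) were also at an unadjusted edgeR p under 0.05, Map2 with separate groups. Other members of these lists differed from them, as 3 of 7 stellate markers were higher. In the neuron list Syt1 was at 0.03 (SE 0.11) and Snap25 at 0 in every liver. Trem2 and Cps1 were each the only marker of their list at an unadjusted edgeR p under 0.05. Of 7 macrophage markers, 5 were higher and 2 lower, with Clec4f, the most abundant, at -0.05 (SE 0.19). Of 7 hepatocyte markers, 2 were higher and 5 lower, with Alb at -0.11 (SE 0.09). The part of these markers in the Acot values was not tested. Adipocyte markers Lep and Ucp1 and the muscle marker Myh4 were at 0 in every liver. The muscle marker Acta1, below the filter, was at 0.454, 0.315, 2.58 and 1.68 CPM in control livers. It was lower in every Smo-KO liver, at 0.206, 0, 0.122 and 0.213 CPM. The summed muscle list was at 1.36 ± 1.08 CPM in control and 0.323 ± 0.168 CPM in Smo-KO livers (exact permutation p = 0.0857, n = 4 each). The adipocyte list summed to 0.0546 and 0.0258 CPM (exact permutation p = 0.429).

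Sequence shared with other annotated genes limits how far reads can be assigned to 1 gene. Some 100-base words of the longest coding transcript also occur in another annotated gene, read on either strand. Their share was 21.9% in Acot1, 17.1% in Acot2, 16.6% in Acot3 and 8.85% in Acot4. Of the Acot1 words, 16.5% occur in Acot2. Of the Acot4 words, 8.83% occur in 4732463B04Rik. Of the Acot3 words, 9.9% occur in Gm49366, 6.42% in 4732463B04Rik and 3.12% in Acot1. Gm49366 and 4732463B04Rik lie over Acot3 and Acot4, as given below. The ratio of Acot2 to Acot1 reads was 2.12 to 3.06 in control and 1.85 to 3.01 in Smo-KO livers. Acot9 shares 20.2% of its 50-base words with Acot10, but only 0.968% of its 100-base words with any other gene. Acot10 itself had reads in Smo-KO 1 only (0.103 CPM). Acot7 and Acot13 share no 50-base words. Acot3 and Acot4 also overlap 4732463B04Rik, annotated on the other strand, over 312 and 615 bases, and Acot11 overlaps Fam151a, which had no reads in any liver. Acot8 overlaps Snx21 on the other strand over 246 bases, and Snx21 was at 16.3 CPM in control and 15.6 CPM in Smo-KO livers (log2 fold change -0.06, SE 0.14). Acot12 overlaps 4833422C13Rik on the other strand over 149 bases. Without a stated strand setting, reads in these overlaps cannot be told apart. Acot3 also overlaps Gm49366 on the same strand over 396 bases, and Acot4 does over 33 bases, which a strand setting would not resolve. Neither Gm49366 nor 4732463B04Rik is a symbol of the count lists. The Acot1, Acot2 and Acot9 exons overlap no other gene, and their uncertainty is that of shared sequence.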

How the data were processed

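Total RNA of 8 livers (4 control, 4 Smo-KO) was sequenced by the submitters after NEBNext Ultra library preparation. The submitters' processing notes name fastp, STAR 2.7.5, featureCounts 2.0.1 and the GRCm38 genome, but the lists end in entries of the form that htseq-count writes, so the counter is uncertain. It decides how reads in overlaps and in near-identical genes were counted. The annotation, strand setting and treatment of reads with several matches are not given in the sources used here. The authors deposited raw read counts per gene symbol, 1 list per liver, with 25239 symbols and 5 entries that name no gene. Library sizes did not include those 5 entries. The share of reads on no feature was 8.33 ± 0.743% (control) against 9.23 ± 0.330% (Smo-KO; SD, 4 livers per group; exact permutation p = 0.114).

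The counts were filtered with filterByExpr, scaled by TMM and fitted with genotype only in edgeR 4.0.16 (quasi-likelihood F test, R 4.3.3), with Benjamini-Hochberg adjustment over 12977 genes and a threshold of 0.05. DESeq2 1.42.0 (Wald test) was an alternative, as were its size factors, no filter, at least 10 counts in every sample, a replicate block and leaving out each liver. Single values were compared by exact two-sided permutation over 70 assignments. No 2 livers of a group had counts within sampling noise of each other. The labels do not say how livers were batched, and p-values measure the spread between these livers.

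The 10 genes and all gene and marker lists were chosen with earlier results of these data known. The text names all 10 genes, Smo, the other thioesterases and, of each other list of enzymes, carriers, targets and regulators, up to 3 genes per direction with the smallest edgeR p among unadjusted p-values under 0.05, plus the most abundant gene; Ppara, single cell type markers, the flanking and the overlapping genes were added after their values were seen. Levels per kb used transcript lengths of GENCODE M21 and promoter windows came from RefSeq. Protein sequences were not analysed here, and 1 gene of the PPAR alpha target list is not reported here.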

Additional observations from a re-analysis of the deposited data

Results flagged for a closer look

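Of 34 groups of 4 livers examined, 4 held 1 liver far from the other 3 by Dixon's test, where chance gives about 1 in 20 groups, or 1.7. Acot2 was at 112 CPM in Smo-KO 3, against 40.6 to 46.4 CPM in the other Smo-KO livers. Acot3 was at 47.9 CPM in the same liver, against 7.53 to 11.9 CPM. Acot12 was at 128 CPM in Smo-KO 1, below the 165 to 171 CPM of the other Smo-KO livers. Smo-KO 1 also had the most Smo of the Smo-KO livers. Them4 was at 25.8 CPM in control 4, against 20.1 to 20.4 CPM in the other control livers.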

How the results depend on the processing

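The 10 genes gave 130 fold changes over 13 alternative fits each. Of these, 124 kept their direction and their side of the threshold, 3 passed it and 3 turned. With all livers and the filter on low counts, no gene of the 10 had an edgeR adjusted p under 0.05. DESeq2 called 1 (Acot12, adjusted p = 0.0131), and edgeR without that filter called 1 (Acot3, log2 fold change 2.23, adjusted p = 0.0442). With a liver left out, edgeR called 0 to 1 (Acot12 without Smo-KO 1). Over all genes tested, edgeR called 0 with an adjusted p under 0.05 (1797 at an unadjusted p under 0.05), DESeq2 called 163, edgeR without the filter called 61, the replicate block called 8, and leaving out a liver gave 0 to 78 (5 without control 1, 78 without Smo-KO 1 and 4 without Smo-KO 3). The replicate block left 0 of the 10 genes called. Deviations of same-numbered livers correlated at 0.104, 0.187, 0.0611 and 0.113, not all above 0.1, and 3 of 4 control livers correlated best with their own number, a hint from the data only, as the labels name no shared origin. Left-out livers turned Acot7 (-0.15 to 0.092), Acot9 (-0.11 to 0.15) and, among the other thioesterases, Mblac2 (-0.18 to 0.0887). The summed chromosome 12 cluster ran from 0.33 without Smo-KO 3 to 0.95 without Smo-KO 1. With the union of exons as length, Acot8 went from 27.1 to 17.3 CPM per kb and below Acot2, Acot4 stood above Acot1, and 3 levels moved by more than the spread between livers. The longest transcripts of Acot1 and Acot8 retain an intron, and their longest coding transcripts, an alternative chosen after seeing the data, left the order as it was. Low counts limit Acot5, Acot6 and Acot10, and 4 livers a group limit every fold change above.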
